A study of Homo sapiens with 4 samples.

Results

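Collagen genes were taken as every gene symbol in the count tables made of COL, a number, A and a number, which gave 44 genes of 28307 symbols. Of these, 40 had at least 1 read in at least 1 library and 21 reached 1 CPM (counts of a gene per 1000000 counts of its library) in each of the 3 deeply sequenced libraries. The study silenced a transposable element of the MIR family on chromosome 11 by CRISPR interference (CRISPRi) and measured polyA RNA in bulk. Its 4 libraries came from i3N-WTC11 cells, human induced pluripotent stem cells that become neurons on induction, at 2 weeks of age. The CRISPRi group (2 libraries) received guide RNAs against the element and the control group (2 libraries) received the empty vector. All 4 libraries carried dCas9-KRAB, an inactive Cas9 fused to a repressor domain, driven by the CAG promoter from the CLYBL locus, and all received lentiGuide-puro virus at a multiplicity of infection of about 3 with puromycin at 0.5 µg/mL for 4 days before collection on day 7. The design used 2 guides per element, and the guide used in each library is not named in the sources used here. All libraries derive from 1 parental line. The element has no gene count of its own, so its silencing was not checked here, and its position is given as chr11:47605296-47605575 in one label and chr11:47608036-47608220 in another.

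Collagens are secreted or membrane proteins in which 3 alpha chains, each encoded by its own gene, wind into a triple helix. Fibrillar collagens (types I, II, III, V, XI, XXIV and XXVII) build fibres of connective tissue, type IV chains build the network of basement membranes, and type VI chains build beaded filaments around cells. The FACIT class sits on the surface of fibrils, and transmembrane collagens span the plasma membrane. In the nervous system, basement membranes surround vessels and the pial surface, and neurons themselves make transmembrane and other non-fibrillar collagens found at synapses.

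Sequencing depth differed between libraries. The CRISPRi libraries held 44839748 and 41560282 counts and control replicate 2 held 39325038, whereas control replicate 1 held 944993, which was 41.6 times fewer than the next library. One count in control replicate 1 was therefore worth 1.06 CPM, and a gene with 0 counts there may lie as high as 3.17 CPM (3 counts), against 0.0669 to 0.0763 CPM in the deep libraries. All 12 neuron markers were present in every library, with TUBB3, a neuronal tubulin, at 2259 to 2590 CPM. The 8 endothelial markers summed to 1.47 to 2.12 CPM, and 1 of them reached 1 CPM in each deep library. PECAM1, CDH5, TEK and VWF were each at 0 to 0.127 CPM. The 9 glial and Schwann cell markers summed to 21.15 CPM or more in every library, and 2 of them reached 1 CPM in each deep library. Within this list SOX10 was at 0 in every library and GFAP at 0 to 0.0962 CPM. Fibroblast and pericyte markers summed to 102 to 130 CPM, and 9 of the 14 reached 1 CPM in each deep library. PRRX1 was at 0 to 0.0481 CPM, DCN at 0 to 0.433 CPM and FN1 (fibronectin) at 48.7 to 58.6 CPM. In bulk libraries fewer cells of a type and less RNA per cell cannot be told apart.

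The neurons' collagen RNA was dominated by COL6A1 and COL26A1. The 44 genes together gave 926 and 1007 CPM in the CRISPRi libraries and 818 and 1009 CPM in the controls, or 966 ± 57.2 against 914 ± 135 CPM (SD, n = 2 libraries each). The lowest sum was that of the shallow control library, and the CRISPRi values lay between both controls. COL6A1 held 50.1% of the collagen counts of the deep libraries and COL26A1 held 21.2%. Without COL6A1 the sums were 481 ± 49.5 CPM in CRISPRi and 460 ± 66.8 CPM in control. Raising the minimum level from 1 to 5 CPM left 12 genes in place of 21.

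To compare genes with each other, CPM was divided by the length of the longest annotated coding transcript in kilobases. On this scale the deep libraries ranged from 113 to 118 CPM per kilobase for COL6A1 and from 61.6 to 72.4 for COL26A1. A wide step separated these from COL4A2, the third, at 6.74 to 7.38 CPM per kilobase. Below it the ranges of neighbouring genes overlapped. COL5A1 was at 4.64 to 6.04 and COL3A1 at 4.11 to 5.09 CPM per kilobase. COL1A1 was at 3.95 to 4.83 and COL27A1 at 3.99 to 4.78 CPM per kilobase. Among these genes COL5A1 was the highest in each deep library but lay below COL1A1 and COL27A1 in control replicate 1. The order of COL3A1, COL1A1 and COL27A1 changed between the deep libraries. COL5A2, COL6A2, COL4A1 and COL1A2 came next, between 2.19 and 3.69 CPM per kilobase. The other 10 genes above the minimum lay between 0.177 and 1.32 CPM per kilobase. The first 10 genes of this order were also the first 10 by the deposited FPKM values.

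**Figure D1:**
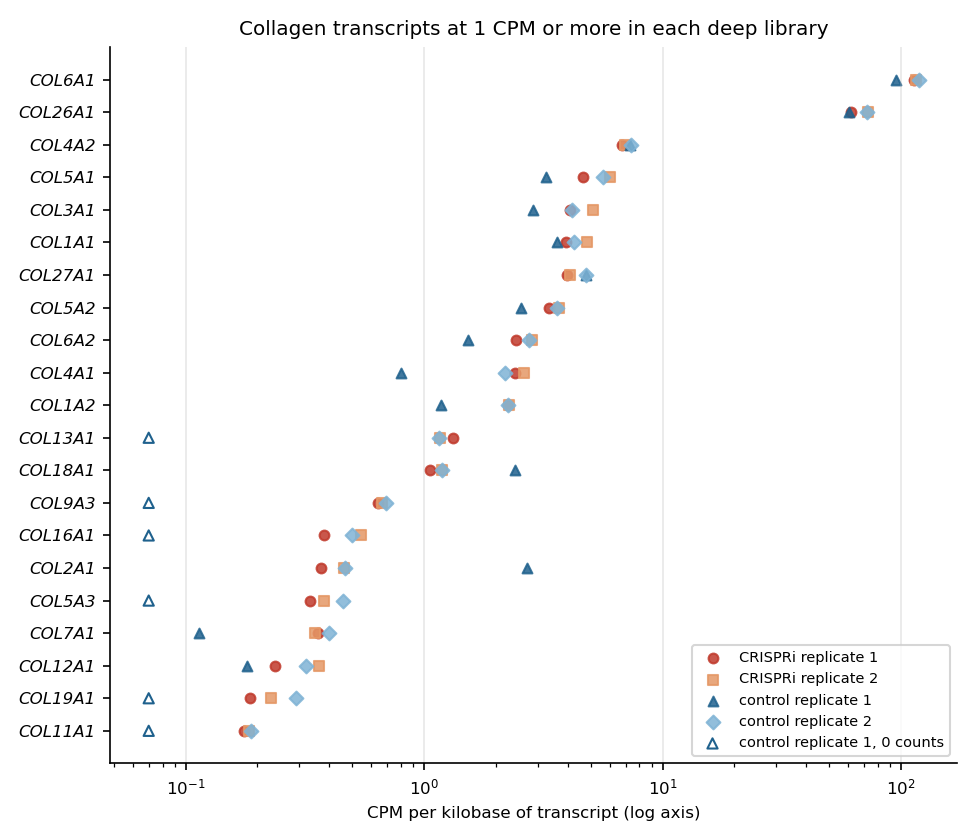
Levels of the 21 collagen genes at 1 CPM or more in each deep library, as CPM per kilobase of transcript on a log axis, with 1 point per library. COL6A1 and COL26A1 lie above 60 CPM per kilobase in every library and all others lie below 8, and open triangles mark genes with 0 counts in control replicate 1.

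COL6A1 encodes the alpha 1 chain of type VI collagen and lies at chr21:45981770-46005048 on the plus strand (hg38). It had 480 and 491 CPM in the CRISPRi libraries and 405 and 502 CPM in the controls. The CRISPRi values fell between the controls, and the log2 fold change, CRISPRi over control, was 0.10 (SE 0.12, 95% interval -0.20 to 0.40). Type VI collagen is known as a trimer of alpha 1, alpha 2 and alpha 3 chains, and the other chains were far lower. COL6A2, the alpha 2 chain, had 8.43 and 9.79 CPM with the guides and 5.29 and 9.51 CPM with the empty vector, with a log2 fold change of 0.06 (SE 0.25). COL6A3, the alpha 3 chain, had 0.736 and 2.29 CPM with the guides and 0 and 0.992 CPM with the empty vector.

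Per kilobase, COL6A1 stood 43.5 ± 2.80 times above COL6A2 over the 3 deep libraries (mean ± SD), and 545 to 1654 times above COL6A3. Chains of this trimer were thus not close to equal at the RNA level in any library. COL6A6, an alternative to the alpha 3 chain, had 5, 7, 0 and 10 counts, in the order CRISPRi 1, CRISPRi 2, control 1 and control 2, and COL6A5 had 0 in every library.

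COL26A1 encodes a collagen with an EMI domain, a cysteine-rich module, and lies at chr7:101362820-101559024 on the plus strand. It had 187 and 220 CPM with the guides and 184 and 219 CPM with the empty vector. Each group held 1 low and 1 high library, and the log2 fold change was 0.0017 (SE 0.13, interval -0.32 to 0.32). Its sign changed with the scaling: it was -0.00025 by median-of-ratios and -0.013 by total counts. COL28A1, the remaining collagen outside the classes described here, had 0, 1, 0 and 5 counts.

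All 11 fibrillar collagen genes had counts, and 9 of them reached 1 CPM in every deep library. Type I collagen, the main protein of skin, bone and tendon, combines alpha 1 and alpha 2 chains. COL1A1, its alpha 1 chain (chr17:50184101-50201631, minus strand), had 26.6 and 32.5 CPM with the guides and 24.3 and 28.7 CPM with the empty vector. COL1A2, its alpha 2 chain (chr7:94394895-94431227, plus strand), had 12.1 and 12.3 CPM with the guides and 6.35 and 12.1 CPM with the empty vector. Groups overlapped or nearly met for both chains, and the log2 fold changes were 0.10 (SE 0.16) for COL1A1 and 0.14 (SE 0.23) for COL1A2. Per kilobase the ratio of alpha 1 to alpha 2 RNA was 1.93 ± 0.184 over the deep libraries, and the known type I trimer holds more alpha 1 than alpha 2 chains.

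COL3A1, the single chain of type III collagen, had 22.8 and 28.2 CPM with the guides and 15.9 and 23.2 CPM with the empty vector. The lower CRISPRi library lay between both controls, and the log2 fold change was 0.24 (SE 0.19). COL5A1, the alpha 1 chain of type V collagen, which starts and limits the growth of fibrils, had 39.3 and 51.2 CPM with the guides and 27.5 and 47.5 CPM with the empty vector. For COL5A2, the alpha 2 chain, the values were 23.6 and 26.2 CPM with the guides and 18.0 and 25.5 CPM with the empty vector. Control replicate 1 was the lowest library for all 3 genes, and the log2 fold changes of COL5A1 and COL5A2 were 0.09 (SE 0.23) and 0.07 (SE 0.16).

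The type V chains kept a narrow ratio, with COL5A1 at 1.39 to 1.64 times COL5A2 per kilobase in the deep libraries. COL3A1 (chr2:188974373-189012746, plus strand) and COL5A2 (chr2:189031898-189179761, minus strand) lie next to each other with their ends facing, and COL3A1 stood at 1.16 to 1.38 times COL5A2 per kilobase. COL5A3, the third type V chain, had 2.05 and 2.36 CPM with the guides and 0 and 2.82 CPM with the empty vector.

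COL27A1 encodes a fibrillar chain known from cartilage and lies at chr9:114155537-114312511 on the plus strand. It had 31.1 and 31.8 CPM with the guides and 37.0 and 37.3 CPM with the empty vector. Both CRISPRi libraries lay below both controls. Its log2 fold change was -0.23 (SE 0.10, interval -0.48 to 0.01) with an unadjusted p of 0.0607, the smallest of the 34 tested collagen genes, and an adjusted p of 1.00 by edgeR. Leaving out single libraries kept the estimate between -0.25 and -0.21.

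COL2A1, the chain of cartilage type II collagen, had 1.87 and 2.33 CPM with the guides and 13.8 and 2.36 CPM with the empty vector. Only control replicate 1 stood apart, and the log2 fold change of -1.30 (SE 0.87, interval -3.46 to 0.87) became -0.16 without that library. The remaining fibrillar genes were low. COL11A1 reached 1.29 to 1.37 CPM in the deep libraries, COL11A2 0.650 to 1.20 and COL24A1 0.313 to 0.687, and all 3 were at 0 in control replicate 1. COL11A2 was listed only on an alternate contig of chromosome 6 and had a deposited FPKM of 0 despite its counts.

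Type IV collagen genes lie in pairs whose starts face each other across a short gap, and 5 of the 6 had counts. COL4A1 (chr13:110148963-110307157, minus strand) and COL4A2 (chr13:110307284-110513209, plus strand) encode the main chains of basement membranes. Their starts are 126 bases apart, against 379 for COL4A6 and COL4A5 on chromosome X and 418 for COL4A4 and COL4A3 on chromosome 2. The sequences between the starts are shown because the members of each pair have this one stretch in common. They were taken from RefSeq promoter windows (GRCh38.p14, plus strand), in full for the first pair and as the 250 bases next to the plus-strand gene for the others. Capitals mark CCAAT and GGGCGG, searched on both strands, so that they also appear as ATTGG and CCGCCC.
COL4A1-COL4A2, chr13:110307158-110307283: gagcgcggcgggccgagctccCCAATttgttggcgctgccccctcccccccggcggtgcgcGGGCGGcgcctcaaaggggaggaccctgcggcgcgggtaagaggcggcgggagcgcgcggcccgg
COL4A6-COL4A5, chrX:108439588-108439837: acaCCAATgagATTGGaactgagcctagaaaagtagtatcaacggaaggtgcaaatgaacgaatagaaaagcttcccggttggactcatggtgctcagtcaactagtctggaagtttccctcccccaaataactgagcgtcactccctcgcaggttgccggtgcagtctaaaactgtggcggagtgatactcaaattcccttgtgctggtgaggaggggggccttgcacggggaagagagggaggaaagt
COL4A4-COL4A3, chr2:227164374-227164623: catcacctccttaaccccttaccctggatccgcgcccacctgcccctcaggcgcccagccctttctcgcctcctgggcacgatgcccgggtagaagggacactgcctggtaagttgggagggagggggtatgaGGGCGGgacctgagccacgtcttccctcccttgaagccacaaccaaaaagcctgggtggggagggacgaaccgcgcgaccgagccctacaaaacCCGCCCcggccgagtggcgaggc

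The COL4A1 and COL4A2 gap held 20 CpG dinucleotides with a GC content of 80.2%, 1 CCAAT and 1 GGGCGG. Among all promoter windows trimmed to 126 bases the median was 6 CpG, and 21.1% held CCAAT and 34.6% held GGGCGG. The COL4A6 and COL4A5 window held 8 CpG (GC 51.2%), 2 CCAAT and 0 GGGCGG, and the COL4A4 and COL4A3 window held 17 CpG (GC 66.4%), 0 CCAAT and 2 GGGCGG. All 35116 windows of 250 bases had a median of 11 CpG, with CCAAT in 32.0% and GGGCGG in 42.6%. A match is a description of the letters only.

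Counts were highest for the COL4A1 and COL4A2 pair and lowest for the COL4A4 and COL4A3 pair. COL4A2 had 43.8 and 45.4 CPM with the guides and 47.6 and 47.9 CPM with the empty vector. Both CRISPRi libraries lay just below both controls, and the log2 fold change was -0.09 (SE 0.09, interval -0.31 to 0.13). COL4A1 had 15.9 and 17.4 CPM with the guides and 5.29 and 14.5 CPM with the empty vector. Both CRISPRi libraries lay above both controls, with a log2 fold change of 0.37 (SE 0.27, interval -0.31 to 1.05) that was 0.20 without control replicate 1. Per kilobase COL4A2 exceeded COL4A1 by 2.94 ± 0.369 times in the deep libraries and by 9.17 times in control replicate 1, although the type IV trimer of these chains is known to hold more alpha 1 than alpha 2.

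COL4A5 and COL4A6, chains of kidney, eye and smooth muscle basement membranes, were lower. COL4A5 had 0.892 and 0.866 CPM with the guides and 4.23 and 1.53 CPM with the empty vector, the 4.23 resting on 4 counts. Both controls were above both CRISPRi libraries, and the log2 fold change was -1.16 (SE 0.60, interval -2.64 to 0.32) or -0.79 without control replicate 1. COL4A6 had 39, 22, 2 and 40 counts, and in the deep libraries its range of 0.0784 to 0.151 CPM per kilobase overlapped that of COL4A5 at 0.134 to 0.235. COL4A4 had 14, 11, 0 and 12 counts and its partner COL4A3 had 0 in every library.

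Of all 44 genes, 31 had a window of 250 bases before a RefSeq start. That start was within 212 bases of the start in the count tables for all of them but COL6A6, where it was 43157 bases away. The 14 windows of genes at 1 CPM or more held a median of 18.5 CpG (6 to 40), and GGGCGG was found in 11 of them, CCAAT in 4 and TATAAA in 3. The 17 windows of the other collagen genes held a median of 16 CpG (1 to 38), with GGGCGG in 6, CCAAT in 5 and TATAAA in 3, the distant COL6A6 window holding 1 of the GGGCGG and 1 of the TATAAA windows. Over all windows TATAAA was found in 10.7%. Among genes at 1 CPM or more, COL6A1, COL1A1, COL1A2, COL2A1, COL3A1, COL5A2 and COL9A3 had no window. Windows of the paired type IV genes overlap, so a match in the overlap counts for both genes.

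The 10 FACIT genes were low throughout. COL12A1 (chr6:75084326-75206053, minus strand), a FACIT chain of fibril surfaces, had 2.79 and 4.26 CPM with the guides and 2.12 and 3.76 CPM with the empty vector. The groups overlapped and the log2 fold change was 0.03 (SE 0.42). COL16A1, COL19A1 and COL9A3 were the only other FACIT genes at 1 CPM or more in the deep libraries, at 2.19 to 3.13, 1.16 to 1.81 and 1.61 to 1.73 CPM, and each had 0 counts in control replicate 1. Type IX collagen of cartilage joins alpha 1, alpha 2 and alpha 3 chains, and COL9A3 exceeded COL9A1 by 5.26 to 7.63 times and COL9A2 by 6.88 to 11.1 times per kilobase. COL14A1, COL20A1 and COL21A1 stayed below 1 CPM, and COL22A1 had 0 counts in every library.

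COL7A1, the chain of the anchoring fibrils of skin, had 3.35 and 3.22 CPM with the guides and 1.06 and 3.69 CPM with the empty vector. Of the transmembrane collagens only COL13A1 (chr10:69801906-69959144, plus strand), known for its part at the neuromuscular junction, reached 1 CPM in each deep library. It had 4.22 and 3.73 CPM with the guides and 0 and 3.69 CPM with the empty vector. The 0 in control replicate 1 stood against 3.68 predicted counts. With the limit of 3 counts in place of 0, that library would lie 1.23-fold below the mean of the deep libraries. The counting interval of the ratio reached 1.01 and so includes 1, and a lower level in that library was not established. The log2 fold change of COL13A1 was 0.36 (SE 0.55). COL25A1, a neuronal transmembrane collagen known from amyloid plaques and from motor innervation, had 40, 42, 0 and 26 counts, or 0.661 to 1.01 CPM in the deep libraries. COL17A1, a hemidesmosome protein, had 17, 24, 0 and 17 counts and COL23A1 had 0 in every library.

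COL18A1 (chr21:45405165-45513720, plus strand) encodes a basement membrane collagen whose end fragment is endostatin. It had 6.96 and 7.82 CPM with the guides and 15.9 and 7.86 CPM with the empty vector. Control replicate 1 was the one high library, and the log2 fold change was -0.34 (SE 0.33), or -0.08 without it. COL18A1 overlaps SLC19A1, a folate transporter gene, which had 29.9 and 29.9 CPM with the guides and 41.3 and 30.0 CPM with the empty vector. The sources used here do not name the strand setting of the counting, so reads of overlapping genes cannot be told apart. Overlaps with a coding gene in the files also applied to COL9A3, COL10A1 and COL4A4. COL15A1, the relative of COL18A1, had 2, 0, 0 and 2 counts, and the short-chain network collagens COL8A1, COL8A2 and COL10A1 had at most 36 counts in any library.

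Silencing of the element was compared with the empty vector over all genes at once. Of 34 collagen genes with enough counts to be tested, 0 were higher and 0 were lower in CRISPRi at an adjusted p below 0.05 (edgeR quasi-likelihood test, Benjamini-Hochberg), beside 0.0255% called over all 15708 tested genes. At an unadjusted p below 0.05 there were also 0, beside 0.961% of all genes, and DESeq2 and limma-voom each called 0 as well. All 34 adjusted p-values were 1.00. The 10 genes not tested had too few counts: COL4A3, COL6A5, COL22A1 and COL23A1 at 0, and COL6A6, COL8A2, COL10A1, COL15A1, COL20A1 and COL28A1 near 0.

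Of the tested collagen genes 23 had a positive and 11 a negative log2 fold change, beside 52.7% positive over all tested genes. The collagen median was 0.08 against 0.01 over all tested genes. The estimates ran from -1.30 for COL2A1 to 0.81 for COL14A1. The precision differed widely: the 95% interval lay within a change of 1 log2 unit either way for 10 genes, and its median half-width was 1.46 on the log2 scale against 0.42 over all genes. For most low collagens a change smaller than that half-width was not detectable. With control replicate 2 left out, so that the shallow library alone stood for the controls, 3 genes passed the test: COL2A1 at -2.68 (adjusted p = 0.0133), COL4A1 at 1.68 (adjusted p = 0.0239) and COL6A1 at 0.29 (adjusted p = 0.0168), beside 8.58% of all genes. With control replicate 1 left out 0 passed, beside 0.659% of all genes.

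**Figure D2:**
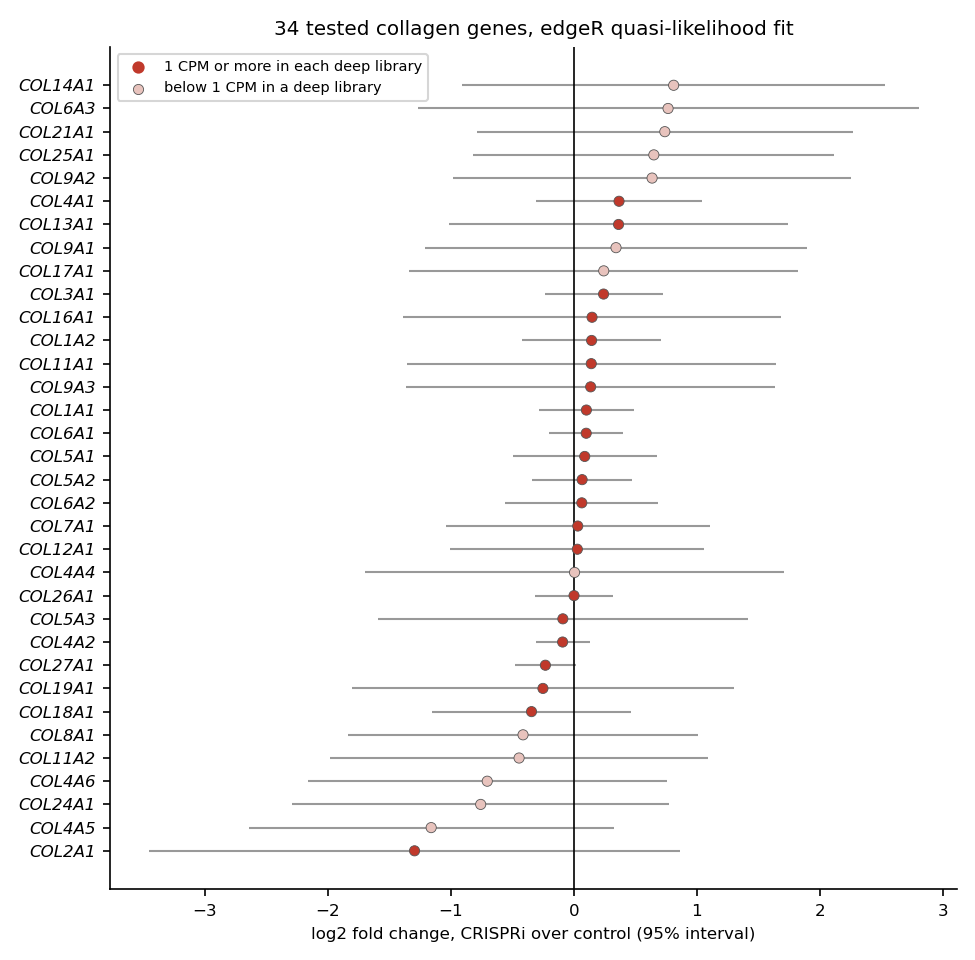
Log2 fold changes, CRISPRi over control, of the 34 tested collagen genes with their 95% intervals, dark points for genes at 1 CPM or more in each deep library. Every interval includes 0, and that of COL27A1 ends at 0.01.

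The deep libraries allow the spread among collagens to be seen without the shallow one. Within the CRISPRi group, 26 of the 34 tested genes had a higher CPM in replicate 2 than in replicate 1, beside 47.4% of all tested genes. The counting interval of the ratio lay above 1 for 10 genes (10.5% of all genes) and below 1 for 0 (12.7%). Those 10 were COL1A1, COL3A1, COL5A1, COL5A2, COL6A1, COL6A2, COL6A3, COL12A1, COL16A1 and COL26A1, most of them chains of fibrillar and type VI collagen. COL5A1 was 1.30 times higher (95% interval 1.22 to 1.39), COL3A1 1.24 times (1.14 to 1.35) and COL1A1 1.22 times (1.13 to 1.32). COL6A3 differed most among them, by 3.11 times (2.07 to 4.77), and COL27A1 not detectably, at 1.02 times (0.948 to 1.10). These intervals cover counting error only, and both libraries received guides against the same element, possibly different ones.

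Against control replicate 2, collagens of the CRISPRi libraries differed in both directions. CRISPRi replicate 1 lay above control replicate 2 for 8 of 34 genes, beside 49.1% of all genes, with 0 intervals above 1 (12.0%) and 9 below 1 (13.1%). CRISPRi replicate 2 lay above control replicate 2 for 18 of 34, beside 46.7%, with 7 intervals above 1 (9.63%) and 6 below 1 (12.6%). Both comparisons use the same control library. COL27A1, COL4A5 and COL6A1 had intervals below 1 in both, and for COL27A1 the ratio of CRISPRi replicate 2 to control replicate 2 was 0.854 (0.792 to 0.920). COL5A1 was below 1 in the first and above 1 in the second.

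Marker lists of cell types were compared between the same CRISPRi libraries, where 47.4% of all tested genes were higher in replicate 2. All 14 fibroblast and pericyte markers were higher in CRISPRi replicate 2 than in replicate 1, and their sum was 1.11 times higher, at 130 against 117 CPM. DCN and PRRX1 were both below 1 CPM, at 0.433 against 0.268 CPM and 0.0481 against 0 CPM. The PRRX1 values were below 3 counts, which were worth 0.0722 CPM in CRISPRi replicate 2. Among cell cycle markers 17 of 20 were higher (sum 1.07 times) and among neuron markers 7 of 12 (1.05 times), while the summed collagens were 1.09 times higher. Endothelial markers were higher for 5 of 8 with a count (sum 1.42 times, at 2.09 against 1.47 CPM), and glial and Schwann cell markers for 5 of 8 with a lower sum (0.923 times). The part of these cells in the collagen difference was not tested.

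**Figure D3:**
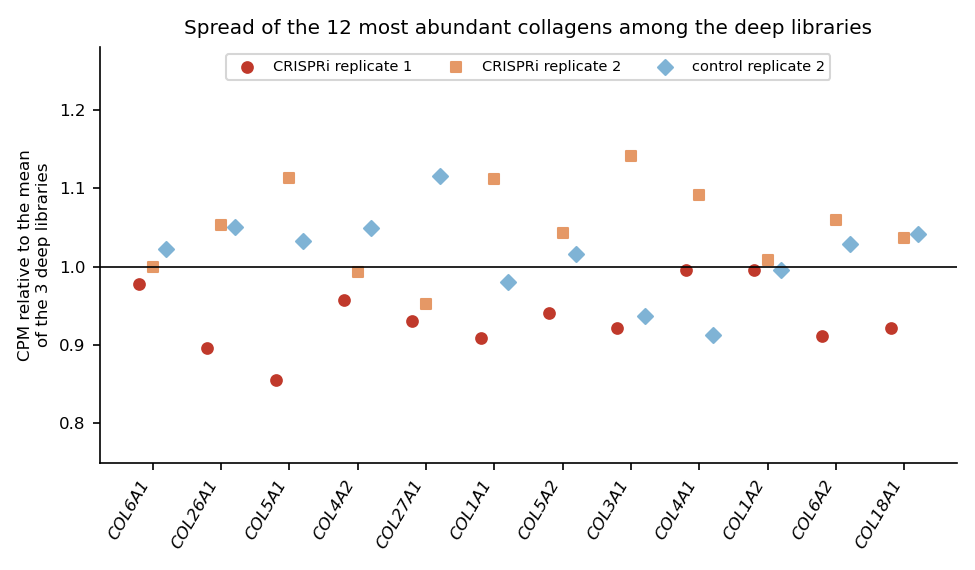
CPM of the 12 collagen genes with the highest mean in the deep libraries, divided by the mean of the 3 deep libraries, with 1 point per library. CRISPRi replicate 1 lies at or below 1.0 for all 12, and COL27A1 is the gene where control replicate 2 stands above both CRISPRi libraries by most.

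Control replicate 1 was set against the deep libraries by predicting its counts from their mean CPM. It held 773 collagen counts (95% Poisson interval 719 to 829) where 925 were predicted, a ratio of 0.84. Without COL6A1 it held 390 (352 to 431) against 461, and without COL6A1 and COL26A1 216 (188 to 247) against 265. The lower sum was therefore not carried by the top genes alone. Of the 44 genes 26 had 0 counts there, of which 22 had counts in a deep library.

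Over the 34 tested genes the counting interval of the ratio lay above 1 for 3 genes (11.7% of all tested genes) and below 1 for 3 (7.47%). COL2A1 was the highest, with 13 counts against 2.06 predicted, a ratio of 6.31 (3.32 to 11.0). COL18A1 had 15 against 7.11, a ratio of 2.11 (1.18 to 3.50), and COL4A5 had 4 against 1.02, a ratio of 3.91 (1.05 to 10.3). The lower genes were COL6A1 with 383 against 463 (0.826, 0.745 to 0.914), COL5A1 with 26 against 43.3 (0.601, 0.392 to 0.881) and COL4A1 with 5 against 15.1 (0.332, 0.108 to 0.776). COL26A1 had 174 against 196, a ratio of 0.886 whose interval of 0.759 to 1.03 includes 1, and COL4A2 had 45 against 43.1.

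Among the 12 collagens with at least 5 predicted counts, 1 was higher and 3 were lower by that interval, beside 12.5% and 9.87% of all such genes. By position, 1 of the 12 lay above the range of the deep libraries and 9 below it, beside 42.5% and 45.5% of all such genes, and COL4A2 and COL27A1 lay within it. Neuron markers were also lower in control replicate 1, at 17054 CPM against 19206 to 20099 CPM in the deep libraries, with counting intervals below 1 for 8 of 12. Cell cycle markers were at 777 CPM against 153 to 164 CPM, higher for 10 of the 10 with at least 5 predicted counts. Fibroblast and pericyte markers stood at 0.81 of the predicted sum. The part of these cells, and of depth, in the collagen values of this library was not tested.

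**Figure D4:**
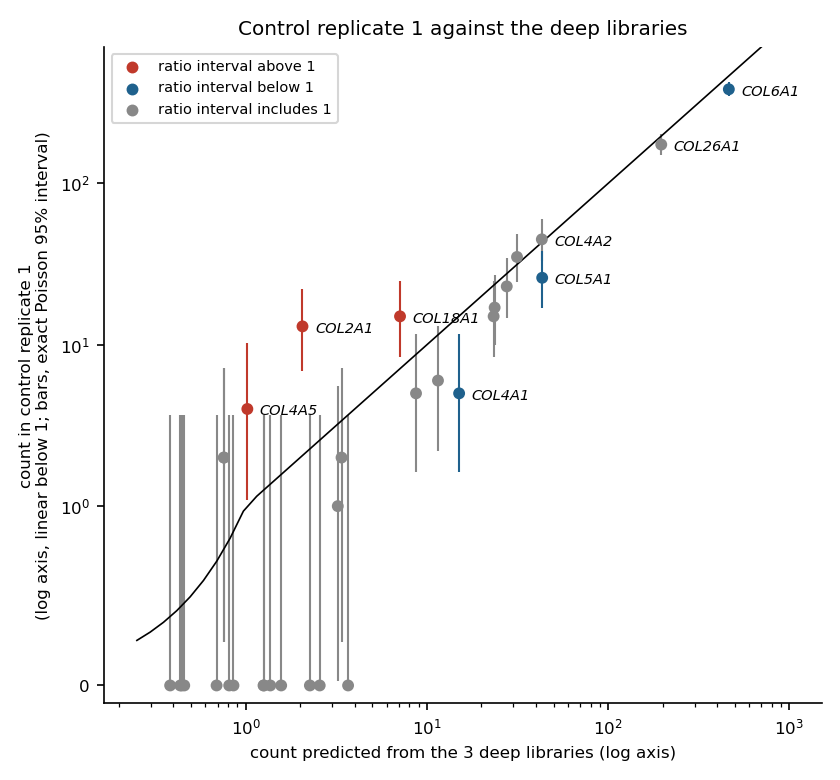
Counts of tested collagen genes in control replicate 1 against the counts predicted from the 3 deep libraries. Bars are exact Poisson 95% intervals, the line marks equality, and both axes are logarithmic above 1. Of the 34 tested genes, COL4A4 and COL9A2, with the lowest predicted counts (0.278 and 0.225), are not shown. COL2A1, COL18A1 and COL4A5 lie above the line and COL6A1, COL5A1 and COL4A1 below it with ratio intervals that exclude 1.

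Genes that make, export, mature, bind or cut collagen were read from the same fit, with 0 called in either direction in each of the 6 lists. Over all tested genes 52.7% had a positive log2 fold change. Collagen biosynthesis in the endoplasmic reticulum depends on hydroxylases of proline and lysine and on chaperones. Of 18 tested genes of this list 5 had a positive and 13 a negative log2 fold change (median -0.11). P4HB, protein disulfide isomerase and a subunit of prolyl 4-hydroxylase, had 232 and 244 CPM with the guides and 297 and 236 CPM with the empty vector, and PPIB, a prolyl isomerase, had 137 and 148 against 160 and 140 CPM. Neither list member separated the groups. P4HA2, a catalytic subunit of prolyl 4-hydroxylase, had a log2 fold change of -0.25 (SE 0.18).

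COLGALT2, which adds galactose to collagen hydroxylysine, had 26.5 and 25.7 CPM with the guides and 27.5 and 14.0 CPM with the empty vector. Control replicate 2 was the one low library. Its log2 fold change of 0.69 (SE 0.26) had an unadjusted p of 0.0396 and an adjusted p of 1.00 by edgeR. Without control replicate 1 it was 0.91 (adjusted p = 0.00607), and without control replicate 2 it was -0.04.

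The biosynthesis list stood higher in control replicate 1 than collagens did, at 972 against 787 to 828 CPM in the deep libraries, with intervals above 1 for 4 of the 15 genes with at least 5 predicted counts, beside 12.5% of all such genes. SERPINH1 (HSP47), the collagen-specific chaperone, had 12.8 and 14.8 CPM with the guides and 27.5 and 14.7 CPM with the empty vector, and FKBP10, a prolyl isomerase, had 46.4 and 55.1 against 85.7 and 50.2 CPM. Both were named after their values were seen. Export of bulky procollagen from the endoplasmic reticulum uses enlarged COPII carriers. Its 9 genes had 4 positive and 5 negative changes (median -0.10), among them SEC31A, a COPII coat protein, at 0.12 (SE 0.09), MIA3 (TANGO1), the procollagen export receptor, at 0.13 (SE 0.09), SEC13 at -0.18 (SE 0.13) and CREB3L2, a transcription factor of secretory genes, at -0.15 (SE 0.10).

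Maturation outside the cell comprises propeptide removal and crosslinking by lysyl oxidases. Of 13 tested genes 6 were positive and 7 negative (median -0.0013). SPARC, a collagen-binding matrix protein, had 309 and 361 CPM with the guides and 291 and 348 CPM with the empty vector, and LOXL1, a lysyl oxidase, had 176 and 194 against 169 and 192 CPM. Each group again held 1 low and 1 high library for both genes. PCOLCE2, an enhancer of propeptide removal, had 1.20 and 1.06 CPM with the guides and 8.47 and 1.42 CPM with the empty vector, with a log2 fold change of -1.34 (SE 0.90) that was -0.32 without control replicate 1. LOXL3 had a log2 fold change of -0.24 (SE 0.21).

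Receptors of collagen gave 5 positive and 4 negative changes among 9 tested genes (median 0.01). ITGB1, the beta 1 integrin subunit shared by the collagen-binding integrins, had 212 and 217 CPM with the guides and 190 and 204 CPM with the empty vector, a log2 fold change of 0.13 (SE 0.08). DDR1, a receptor tyrosine kinase for collagen, had 140 and 138 against 122 and 141 CPM, and ITGA1, an alpha subunit that pairs with ITGB1 to bind collagen, had a log2 fold change of 0.26 (SE 0.42).

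Partners of type IV collagen in basement membranes were present, with AGRN (agrin) at 522 and 513 CPM with the guides and 442 and 535 CPM with the empty vector. Of 14 tested genes of this list 6 were positive and 8 negative (median -0.03). LAMA5, the laminin alpha 5 chain, had 121 and 126 CPM with the guides and 150 and 142 CPM with the empty vector. Both CRISPRi libraries were below both controls, with a log2 fold change of -0.22 (SE 0.07), an unadjusted p of 0.0256 and an adjusted p of 1.00 by edgeR. DAG1, the dystroglycan gene, had a log2 fold change of -0.02 (SE 0.07) and LAMB2, a laminin beta chain, -0.29 (SE 0.17). NID1 (nidogen 1), which links laminin to type IV collagen and was named after its values were seen, had 5.00 and 4.81 CPM with the guides and 34.9 and 5.44 CPM with the empty vector.

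Collagen-cutting proteases were led by MMP15, a membrane-type metalloproteinase, at 221 and 222 CPM with the guides and 201 and 225 CPM with the empty vector. The 7 tested genes had 4 positive and 3 negative changes (median 0.0048). MMP2 (gelatinase A) had 102 and 94.1 CPM with the guides and 73.0 and 86.1 CPM with the empty vector. Both CRISPRi libraries were above both controls, with a log2 fold change of 0.26 (SE 0.10), an unadjusted p of 0.0441 and an adjusted p of 1.00 by edgeR. MMP24 stood at -0.06 (SE 0.09). CTSK, the collagen-cutting cathepsin K, had 0.446 and 0.481 CPM with the guides and 0 and 0.992 CPM with the empty vector, a log2 fold change of -0.93 (SE 0.61). The interstitial collagenases MMP8 and MMP13 had 0 counts in every library and MMP1 had at most 0.0763 CPM.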

How the data were processed

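Whole-number read counts and FPKM values per gene were computed by the authors and deposited for each of the 4 libraries. Per the labels, RNA was polyA-selected and read as pairs of 75 bp, and replicates were biologically independent. Per the submitters' processing notes edgeR and limma were used on hg38. The sources used here do not name the aligner, the counter or the strand setting. FPKM values as deposited served only to check the order of levels.

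Counts were summed per symbol over all rows, alternate contigs included (5.08% to 5.15% of counts), and scaled to CPM by the library total. CRISPRi was compared with control on the whole table with the robust quasi-likelihood test of edgeR 4.0.16 (R 4.3.3) after filterByExpr and TMM scaling, and p-values were adjusted by Benjamini-Hochberg with a threshold of 0.05. The fit weights libraries by depth, so its fold changes differ from ratios of mean CPM. No permutation test was run, since the smallest exact p that 2 against 2 libraries allow is 0.333. Ratios of control replicate 1 and of library pairs have 95% counting intervals, which cover counting error only. Transcript lengths were those of GENCODE and promoter sequences those of RefSeq, where all 44 symbols matched.

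Values in every library were given for the 15 collagens with the highest mean CPM, the 5 with the smallest p and those whose control replicate 1 interval left the range of the deep libraries. In each partner list the 2 most abundant members and the 2 with the smallest p were named. COL6A3, COL5A3, COL7A1 and other collagens with low counts are described to account for every member, and the collagens called in pairs of deep libraries were named after their values were seen. Members, lists and tests were chosen with earlier results of these data known. Alternatives were scaling by median-of-ratios or by total counts, fitting unfiltered genes or those with 1 CPM in 2 libraries, DESeq2 1.42.0, voom in limma 3.58.1, a replicate block, primary chromosomes only, other level minimums, another reference for control replicate 1, and each library left out in turn. A minimum of 5 predicted counts and the sum without COL6A1 were added after seeing the data. The fitting code was tested on simulated data.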

Additional observations from a re-analysis of the deposited data

How the results depend on the processing

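The counts of 0 collagen and 0 partner genes called held under both other scalings, both other filters, DESeq2, limma-voom, the replicate block and primary chromosomes only. With each library left out in turn, collagen or partner genes were called only when a control was dropped, which left 1 control library. Collagens were called only without control replicate 2. Partner genes were called without control replicate 2 and, for COLGALT2 alone, without control replicate 1. The median collagen log2 fold change ranged from -0.075 without control replicate 1 to 1.68 without control replicate 2. In the latter fit the spread of the single shallow control had to be taken from the CRISPRi libraries. The 1.68 was the value of COL4A1 itself. Collagens with 0 counts in control replicate 1, such as COL13A1 at 9.86, had estimates in that fit that are no measure of size. The 1.68 therefore does not measure a shift of the whole family. The median was 0.19 in DESeq2 and 0.02 in limma-voom. Summed collagen CPM ranged from 926 to 1007 for CRISPRi and from 818 to 1009 for control, and was 481 and 460 with COL6A1 left out, by construction. A minimum of 5 CPM left 12 collagens in place of 21, and requiring at least 5 predicted counts left 1 gene higher in control replicate 1 in place of 3. Depth limits control replicate 1, where 26 collagens had 0 counts, 4 of them at 0 in every library.

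Replicate numbers are shared by both groups, and the correlation of same-numbered deviations was -0.03. Counting noise of the shallow control replicate 1 enters the control deviations, so this value cannot decide whether replicates were paired. With the replicate number as a block 0 collagens were called higher and 0 lower, and the median log2 fold change was 0.26.

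Of 466 values for 39 named genes under the alternatives, 425 had the same sign and stayed on their side of the threshold, 7 newly passed it and 34 changed sign; the cause was not tested. COL26A1 was -0.00025 under median-of-ratios scaling, -0.0043 under the 1 CPM filter, -0.0021 on primary chromosomes only, -0.013 under total-count scaling and -0.080 in limma-voom. In limma-voom COL12A1 was -0.018, COL5A1 -0.042, COL5A2 -0.0048, SPARC -0.012, LOXL1 -0.029 and PPIB 0.019. With single libraries left out, log2 fold changes ranged across 0 for 17 genes: COL12A1 from -0.19 to 0.76, COL1A1 from -0.011 to 0.31, COL26A1 from -0.11 to 0.17, COL5A1 from -0.064 to 0.75, COL5A2 from -0.029 to 0.50, COL6A1 from -0.043 to 0.29, COL6A2 from -0.057 to 0.81, P4HB from -0.29 to 0.021, PPIB from -0.14 to 0.036, COLGALT2 from -0.044 to 0.91, SPARC from -0.048 to 0.23, LOXL1 from -0.046 to 0.16, DDR1 from -0.017 to 0.22, AGRN from -0.043 to 0.26, DAG1 from -0.058 to 0.013, MMP15 from -0.017 to 0.17 and CTSK from -1.09 to 6.77, the last value against 0 counts in control replicate 1 and therefore no measure of size.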

Other observations

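Proteins with a short collagen triple helix but no collagen gene symbol were looked at beside the collagens, from a list of 18 genes added after the files were in hand and before their values were read. Of these, 4 reached 1 CPM in each deep library and 7 had 0 counts in every library. EDA (ectodysplasin A, a membrane-bound signalling protein) had 5.22 and 5.34 CPM with the guides and 6.35 and 5.31 CPM with the empty vector. EMID1, the relative of COL26A1 with an EMI domain, had 3.32 and 3.75 CPM with the guides and 0 and 4.07 CPM with the empty vector. CTHRC1, a secreted protein with a short triple helix, had 3.32 and 3.68 against 2.12 and 3.41 CPM, and SCARA3, a scavenger receptor-like protein, had 1.54 and 2.02 against 3.17 and 2.19 CPM. COLQ, the collagen tail of acetylcholinesterase, had 1.25 and 0.962 against 0 and 1.32 CPM. The groups overlapped for each of these genes except SCARA3, where both controls were above both CRISPRi libraries. The 3.17 CPM of SCARA3 in control replicate 1 rested on 3 counts. Of 8 tested genes 0 were called higher and 0 lower by edgeR. A positive log2 fold change was found for 3 and a negative one for 5, beside 52.7% positive over all tested genes. The defense collagens COLEC10, MBL2, MARCO and MSR1 were among the genes with 0 counts.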
